A study of Mus musculus with 12 samples.

Results

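Messenger RNA of 10 genes of the oxidative stress response was followed across resting and inflammatory macrophages, with and without inhibition of DGAT1, the enzyme that adds the last fatty acyl chain in triacylglycerol synthesis. The genes are the regulators Nfe2l2, Keap1 and Sqstm1, the thioredoxin system genes Txn1, Txnrd1, Prdx1 and Srxn1, and the detoxification genes Nqo1, Abcc1 and Esd. They were chosen by name as 10 of the 47937 genes counted, and all 10 passed the filter on low counts that left 11760 genes to be tested. Macrophages were grown for 7 days with CSF-1 from the bone marrow of C57BL/6 mice, 6 to 8 weeks old per the study's methods, and no genetic change was stated for any group. The 4 groups of 3 libraries each were resting macrophages (M0), inflammatory macrophages stimulated for 18 h with 50 ng/ml IFNγ and 20 ng/ml LPS (IFNγ + LPS), resting macrophages with 50 μM of the DGAT1 inhibitor T863 for 18 h (M0 + DGAT1i), and stimulated macrophages with the inhibitor throughout the 18 h (IFNγ + LPS + DGAT1i). The labels give no time for M0, which the study's methods place at the same 18 h, and no solvent control is stated for these cultures. The study reported more mitochondrial reactive oxygen species after loss of DGAT1 function in macrophages stimulated with IFNγ + LPS. The question asked here is how mRNA levels of genes that answer oxidants stood in these 4 groups, which include resting cells.

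NRF2, the product of Nfe2l2, is a transcription factor that KEAP1 holds in the cytoplasm and delivers to the proteasome. Oxidants and electrophiles modify cysteines of KEAP1, and p62, the product of Sqstm1, can bind KEAP1 and draw it into autophagy, so that NRF2 accumulates and, paired with a small MAF protein, activates genes with an antioxidant response element (ARE). NRF2 is regulated to a large part at the protein level, and its targets in macrophages include the thioredoxin and glutathione systems, NAD(P)H quinone oxidoreductase and heme oxygenase 1.

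Libraries held 4996014 to 6621671 reads on genes, and values are given as CPM, reads scaled by library size and TMM factor, with 1 CPM worth 4.28 to 7.58 reads. TMM factors ran from 0.846 to 0.869 in the 6 libraries with IFNγ + LPS and from 1.14 to 1.19 in the 6 resting libraries. Reads of all 8 macrophage markers searched were found in every group, whereas the T and NK cell, mast cell and erythroid markers had 0 reads. The summed level of the macrophage markers was 13122 to 14354 CPM in M0, 16067 to 18085 CPM in M0 + DGAT1i, 8246 to 8913 CPM in IFNγ + LPS and 7896 to 8860 CPM in IFNγ + LPS + DGAT1i, so that it moved with the stimulus and, in resting cells, with DGAT1i. The summed level of 9 neutrophil and granulocyte precursor markers was 31.6 to 38.7 CPM in M0, 22.9 to 29.0 CPM in M0 + DGAT1i, 15.2 to 25.5 CPM in IFNγ + LPS and 63.0 to 81.0 CPM in IFNγ + LPS + DGAT1i, with Ly6g and Retnlg at 0 in every group. That of 4 dendritic cell markers was 0.133 to 0.696, 0.264 to 0.568, 11.99 to 16.8 and 3.13 to 4.12 CPM in the same order. Both sums moved with the stimulus and, in stimulated cells, with DGAT1i, and the neutrophil sum also moved with DGAT1i in resting cells. Not all genes followed their sum. The dendritic sum moved through Xcr1 and Clec9a, while Flt3 reached at most 0.211 and Zbtb46 0.900 CPM in any library. In IFNγ + LPS against M0, Ngp and Ltf fell and Elane and Mpo went to 0, while S100a8, S100a9 and Camp overlapped. The part of these 3 lists in the results was not tested. In bulk RNA, a change in the share of cells that express a gene and a change in RNA per cell cannot be told apart. The labels do not say whether the libraries of a group came from separate mice, so that p-values measure the spread between these libraries. For 2 of the 3 M0 + DGAT1i libraries the description names a compound number other than the source label, which was followed.

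Sequences upstream of the members were searched for the core of the ARE, TGACNNNGC, and for the AP-1 motif TGANTCA, on both strands, in RefSeq promoter windows (GRCm38.p6) of 250 bases before to 50 after an annotated start. The table of windows gave 11 for 9 of the 10 members, and Abcc1 has no window in it. The ARE core was found in 4 of these 11 windows (36.4%), beside 14.6% of the 11398 windows of genes tested, and AP-1 in 2 of 11 (18.2%), beside 5.05%. The 4 windows with an ARE core belong to Prdx1, Srxn1, Txnrd1 (1 of its 3) and Nfe2l2. Their bases are shown up to the RefSeq start. For Prdx1, Srxn1 and Txnrd1 they stop at the first transcript start of GENCODE M21 inside the window, which lies before it. Each runs 5′ to 3′ on the strand of the gene, with matches in capitals.
Prdx1, chr4:116685349-116685543, plus strand: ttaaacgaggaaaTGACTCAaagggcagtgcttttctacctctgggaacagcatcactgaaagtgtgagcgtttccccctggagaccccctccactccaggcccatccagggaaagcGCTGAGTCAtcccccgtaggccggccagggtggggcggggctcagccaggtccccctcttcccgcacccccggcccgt
Srxn1, chr2:152105274-152105515, plus strand: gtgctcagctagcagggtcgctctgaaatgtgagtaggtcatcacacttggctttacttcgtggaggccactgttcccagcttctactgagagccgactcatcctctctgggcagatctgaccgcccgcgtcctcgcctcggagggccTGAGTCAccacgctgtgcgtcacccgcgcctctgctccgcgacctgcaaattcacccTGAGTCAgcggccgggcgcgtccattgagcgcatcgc
Txnrd1, chr10:82858956-82859178, plus strand: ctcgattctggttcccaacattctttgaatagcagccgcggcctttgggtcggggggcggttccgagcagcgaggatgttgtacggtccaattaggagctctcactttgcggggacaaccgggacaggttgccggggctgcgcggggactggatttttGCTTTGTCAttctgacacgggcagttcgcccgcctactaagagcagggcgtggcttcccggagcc
Nfe2l2, chr2:75704664-75704913, minus strand: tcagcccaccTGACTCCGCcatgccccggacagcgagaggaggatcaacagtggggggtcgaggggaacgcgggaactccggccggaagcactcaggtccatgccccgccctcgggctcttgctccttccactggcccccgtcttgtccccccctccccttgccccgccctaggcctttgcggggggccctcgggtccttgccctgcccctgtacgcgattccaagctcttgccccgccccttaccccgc
In Prdx1 the ARE core, read on the opposite strand, begins 133 bases before the RefSeq start, from which all distances here are counted, and overlaps an AP-1 match, and a second AP-1 match lies 237 bases before it. In Srxn1 the capitals above are a pair of AP-1 matches at 102 and 45 bases before the start, and its ARE core lies 29 bases after the start, in agtgggcaGCTAGGTCAgagtgaga. The match of Txnrd1 begins 92 bases before the start on the opposite strand and that of Nfe2l2 240 bases before it. A match is a string of letters and was not tested as a binding site, and the windows of Keap1, Nqo1, Txn1, Sqstm1 and Esd held neither motif. Sequence outside the windows was not searched, so a window without a match does not mean a gene without an ARE.

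IFNγ + LPS changed all 10 members: 9 rose and Nfe2l2 fell. This stimulus changed 73.3% of all genes tested, 37.1% upwards and 36.2% downwards, at 0.05 after Benjamini-Hochberg (BH) adjustment of edgeR's quasi-likelihood p-values, so that a call alone was usual, and the median log2 fold change of the members was 1.96 beside 0.01 over all genes tested. DGAT1i in IFNγ + LPS raised 6 members (Nqo1, Txnrd1, Srxn1, Prdx1, Abcc1 and Esd) and lowered Keap1, where it changed 29.8% of all genes, 13.5% upwards and 16.3% downwards. Without IFNγ + LPS replicate 2 these 7 calls were 4, with Nqo1, Txnrd1 and Keap1 lost. In M0 it raised 6 members (Txnrd1, Srxn1, Prdx1, Abcc1, Sqstm1 and Esd) and lowered none, beside 24.4% of all genes changed, 11.0% upwards and 13.4% downwards. The members' medians were 0.25 in IFNγ + LPS and 0.34 in M0 on the log2 scale, beside -0.01 and 0.00 over all genes. IFNγ + LPS against M0 with DGAT1i in both raised 9 members, beside 35.3% raised and 70.6% changed of all genes, with Nfe2l2 not past the test. The libraries of the compared groups did not overlap for 10, 7, 8 and 10 members in these 4 comparisons, beside 75.4%, 39.7%, 37.8% and 72.5% of all genes. Both inhibitor comparisons use different libraries, whereas each shares its control libraries with the comparison of IFNγ + LPS and M0.

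**Figure D1:**
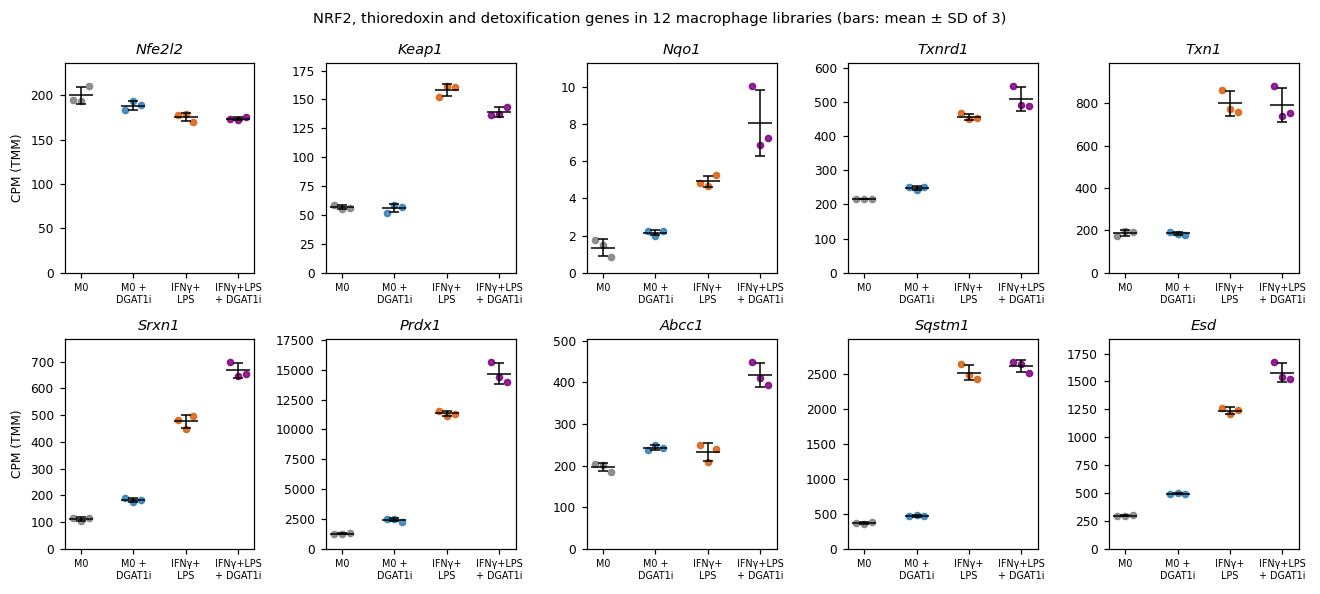
Expression of the 10 members in the 12 libraries, 1 panel per gene, in CPM on a linear axis from 0 that differs between panels. Points are libraries and bars the mean ± SD of 3; Prdx1 climbs from 1237 to 1303 CPM in M0 to 13953 to 15675 CPM in IFNγ + LPS + DGAT1i, while Nfe2l2 lies between 170.1 and 211 CPM throughout.

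Nfe2l2 (ENSMUSG00000015839.6, chr2:75675513-75704641, minus strand), the gene of NRF2 itself, moved least with the stimulus under TMM scaling, but not with library size only, where it stood at -0.66 and Abcc1 at -0.22. It was at 195, 194 and 211 CPM in M0 and at 177, 179 and 170.1 CPM in IFNγ + LPS. With DGAT1i it was at 184, 193 and 189 CPM in M0 and at 173, 172 and 176 CPM in IFNγ + LPS. All stimulated libraries lay below all resting ones. IFNγ + LPS lowered it by 0.19 on the log2 scale (SE 0.05; edgeR, BH-adjusted p = 0.00163). DGAT1i made a difference of -0.01 in IFNγ + LPS (95% interval -0.13 to 0.10; edgeR, BH-adjusted p = 0.893), where the groups overlapped. In M0 the groups did not overlap, but the difference of -0.08 (95% interval -0.19 to 0.02) did not pass the test (edgeR, BH-adjusted p = 0.26). With DGAT1i in both, the difference between stimulated and resting cells was -0.12 (edgeR, BH-adjusted p = 0.051), and it passed the threshold under 5 of 20 alternative settings.

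Keap1 (ENSMUSG00000003308.14, chr9:21229730-21239361, minus strand), the cytoplasmic inhibitor of NRF2, stood at 58.7, 55.5 and 55.7 CPM in M0 and at 152, 162 and 161 CPM in IFNγ + LPS, 2.80-fold higher (log2 fold change 1.48, SE 0.06; edgeR, BH-adjusted p = 2.38e-28). In the presence of DGAT1i it was at 51.9, 58.6 and 57.1 CPM in M0, which overlapped the untreated cells, and at 136, 137 and 144 CPM in IFNγ + LPS, below all 3 stimulated libraries without the inhibitor. Keap1 was thus the one member that fell with DGAT1i in IFNγ + LPS, by 0.19 on the log2 scale (95% interval -0.31 to -0.07; edgeR, BH-adjusted p = 0.014). This call was lost in DESeq2 fitted to only the libraries compared and without IFNγ + LPS replicate 2, and adjusted p ran from 0.00653 to 0.107 over the alternatives. Its DGAT1i responses in resting and stimulated cells differed by -0.17 (95% interval -0.35 to 0.02; edgeR, BH-adjusted p = 0.21). Keap1 shares 510 exon bases, 10.9% of its own, with the antisense gene Gm16754, which took 96 reads over all libraries, and whether the counting used strand is not given in the sources used here.

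Sqstm1 (ENSMUSG00000015837.15, chr11:50199366-50210827, minus strand) encodes p62, an autophagy receptor that binds KEAP1. It was at 366, 352 and 376 CPM in M0 and at 2635, 2477 and 2427 CPM in IFNγ + LPS, a rise of 6.89-fold (log2 fold change 2.78, SE 0.05; edgeR, BH-adjusted p = 4.05e-45), at the 95.2 percentile of all genes tested. DGAT1i took it to 461, 488 and 467 CPM in M0, above every untreated M0 library (1.29-fold; edgeR, BH-adjusted p = 9.69e-08). In IFNγ + LPS + DGAT1i it was at 2673, 2639 and 2517 CPM, which overlapped the stimulated cells without inhibitor, and the difference of 0.05 (95% interval -0.05 to 0.16) did not pass the test (edgeR, BH-adjusted p = 0.458). Its DGAT1i responses differed between IFNγ + LPS and M0 by -0.32 on the log2 scale (SE 0.07; edgeR, BH-adjusted p = 0.000984). Sqstm1 shares 580 exon bases, 17.3% of its own, with Mrnip on the opposite strand, which took 162 reads in all beside 93956 of Sqstm1.

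The thioredoxin system split under DGAT1i: the peroxiredoxin Prdx1 and its repair enzyme Srxn1 rose in resting and in inflammatory cells, Txnrd1 rose by less, and for Txn1 no change was detected. Txn1 (ENSMUSG00000028367.5, chr4:57943373-57956411, minus strand) encodes cytosolic thioredoxin, the small dithiol protein that reduces peroxiredoxins. It was at 171, 198 and 191 CPM in M0 and at 864, 773 and 759 CPM in IFNγ + LPS. With DGAT1i the values were 191, 185 and 179.9 CPM in M0 and 883, 738 and 755 CPM in IFNγ + LPS, so that each pair of groups overlapped. IFNγ + LPS raised Txn1 by 4.27-fold (log2 fold change 2.10, SE 0.06; edgeR, BH-adjusted p = 3.34e-26). The DGAT1i difference was -0.01 both in M0 (95% interval -0.15 to 0.12; edgeR, BH-adjusted p = 0.929) and in IFNγ + LPS (95% interval -0.13 to 0.11; edgeR, BH-adjusted p = 0.917).

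Txnrd1 (ENSMUSG00000020250.9, chr10:82833951-82897712, plus strand) encodes the selenoprotein that reduces thioredoxin with NADPH. It was at 216, 216 and 217 CPM in M0, and DGAT1i took it to 252, 243 and 250.3 CPM, all above M0. This was a rise of 1.15-fold (95% interval of the log2 fold change 0.09 to 0.31; edgeR, BH-adjusted p = 0.00311). IFNγ + LPS brought Txnrd1 to 467, 451 and 454 CPM, 2.11-fold above M0 (log2 fold change 1.08, SE 0.05; edgeR, BH-adjusted p = 6.82e-26). IFNγ + LPS + DGAT1i gave 549, 492 and 488 CPM, again above all libraries without the inhibitor, by 1.11-fold (log2 fold change 0.16, SE 0.05; edgeR, BH-adjusted p = 0.016). The last call was lost without a filter on low counts and without IFNγ + LPS replicate 2, IFNγ + LPS replicate 3 or IFNγ + LPS + DGAT1i replicate 1, with log2 fold changes of 0.10 to 0.18 over the left-out libraries. The DGAT1i responses differed by -0.04 between the states (95% interval -0.19 to 0.11; edgeR, BH-adjusted p = 0.747).

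Prdx1 (ENSMUSG00000028691.12, chr4:116685544-116700822, plus strand), a peroxiredoxin that breaks down hydrogen peroxide, was the most abundant member and moved furthest with IFNγ + LPS. It was at 1237, 1244 and 1303 CPM in M0 and at 11515, 11157 and 11326 CPM in IFNγ + LPS. No library of one group came near the other, and the rise was 8.99-fold (log2 fold change 3.17, SE 0.06; edgeR, BH-adjusted p = 9e-47), at the 95.9 percentile of all genes tested. DGAT1i took Prdx1 to 2521, 2486 and 2272 CPM in M0, a rise of 1.92-fold (log2 fold change 0.94, SE 0.05; edgeR, BH-adjusted p = 8.76e-21) that stood at the 99.0 percentile of the changes by DGAT1i in M0. In IFNγ + LPS + DGAT1i it was at 15675, 14371 and 13953 CPM, each above all libraries with IFNγ + LPS alone, by 1.29-fold (log2 fold change 0.37, SE 0.05; edgeR, BH-adjusted p = 1.01e-07). The DGAT1i responses in the 2 states differed by -0.57 (SE 0.08; edgeR, BH-adjusted p = 4.56e-08). Reads of the near-identical pseudogenes Gm21399 (1530 reads) and Gm7204 (417 reads) are few beside the 462844 of Prdx1, though how reads shared with these copies were counted is not given in the sources used here.

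Srxn1 (ENSMUSG00000032802.8, chr2:152105516-152111376, plus strand) encodes sulfiredoxin, which restores peroxiredoxins that have been overoxidised. It ranked the 4 groups as Prdx1 did, with no overlap between any 2 of them. Srxn1 was at 117, 102 and 116 CPM in M0, at 190.5, 177 and 183 CPM in M0 + DGAT1i, at 481, 449 and 498 CPM in IFNγ + LPS and at 699.9, 646 and 655 CPM in IFNγ + LPS + DGAT1i. IFNγ + LPS raised it by 4.26-fold (log2 fold change 2.09, SE 0.06; edgeR, BH-adjusted p = 1.63e-37). DGAT1i raised it by 1.64-fold in M0 (log2 fold change 0.72, SE 0.06; edgeR, BH-adjusted p = 7.01e-15), the 97.9 percentile of changes in that comparison, and by 1.40-fold in IFNγ + LPS (log2 fold change 0.49, SE 0.05; edgeR, BH-adjusted p = 1.02e-10). The difference between both responses, -0.23 (edgeR, BH-adjusted p = 0.0344), passed the threshold in only 8 of 18 alternative settings, with adjusted p from 0.0135 to 0.158.

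Nqo1 (ENSMUSG00000003849.8, chr8:107388225-107403206, minus strand) encodes NAD(P)H quinone oxidoreductase, an enzyme often read as a marker of NRF2 activity, and in these macrophages it was the least abundant member. Its reads numbered 12, 11 and 6 in M0, 23, 26 and 28 in IFNγ + LPS, 17, 14 and 17 in M0 + DGAT1i and 49, 33 and 31 in IFNγ + LPS + DGAT1i. These are 1.74, 1.46 and 0.835 CPM in M0, 4.84, 4.68 and 5.25 CPM in IFNγ + LPS, 2.26, 1.99 and 2.24 CPM in M0 + DGAT1i, and 10.1, 6.88 and 7.24 CPM in IFNγ + LPS + DGAT1i. The 4 groups did not overlap, and replicate 1 of IFNγ + LPS + DGAT1i was the highest library. IFNγ + LPS raised Nqo1 by 3.62-fold (log2 fold change 1.86, SE 0.31; edgeR, BH-adjusted p = 4.67e-07). DGAT1i raised it by 1.64-fold in IFNγ + LPS (log2 fold change 0.72, 95% interval 0.24 to 1.19; edgeR, BH-adjusted p = 0.016). In M0 the log2 fold change with DGAT1i was 0.68, with a 95% interval of -0.02 to 1.38, wide at these read numbers (edgeR, BH-adjusted p = 0.157). The call in IFNγ + LPS was lost in DESeq2, fitted either way, and without IFNγ + LPS replicate 2 or IFNγ + LPS + DGAT1i replicate 1, with log2 fold changes of 0.52 to 0.82 over the left-out libraries.

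Abcc1 (ENSMUSG00000023088.16, chr16:14361558-14475737, plus strand), the multidrug resistance protein 1 that exports glutathione conjugates and leukotriene C4, was the one member for which the test of the difference found a larger DGAT1i response in inflammatory than in resting cells. It was at 203, 201 and 186 CPM in M0 and at 251, 209 and 239.6 CPM in IFNγ + LPS. With DGAT1i the values were 237, 249 and 243 CPM in M0 and 450.2, 411 and 393 CPM in IFNγ + LPS, the latter above all other libraries. DGAT1i raised Abcc1 by 1.24-fold in M0 (log2 fold change 0.31, SE 0.06; edgeR, BH-adjusted p = 4.36e-05) and by 1.80-fold in IFNγ + LPS (log2 fold change 0.85, SE 0.06; edgeR, BH-adjusted p = 4e-17), the 95.5 percentile of all genes there. The responses differed by 0.54 on the log2 scale (95% interval 0.37 to 0.71; edgeR, BH-adjusted p = 1.65e-06). IFNγ + LPS alone raised Abcc1 by 1.18-fold (log2 fold change 0.24, SE 0.06; edgeR, BH-adjusted p = 0.000277), and this small rise depended on the scaling: with library size only in place of TMM the log2 fold change was -0.22, where the median of all genes tested was -0.46.

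Esd (ENSMUSG00000021996.16, chr14:74732297-74750765, plus strand) encodes esterase D, the S-formylglutathione hydrolase that completes the disposal of formaldehyde. It was at 295, 291 and 299 CPM in M0, at 489, 499 and 494 CPM in M0 + DGAT1i, at 1265, 1208 and 1244 CPM in IFNγ + LPS and at 1678, 1539 and 1523 CPM in IFNγ + LPS + DGAT1i. No groups overlapped. IFNγ + LPS raised Esd by 4.20-fold (log2 fold change 2.07, SE 0.05; edgeR, BH-adjusted p = 1.28e-39). DGAT1i raised it by 1.67-fold in M0 (log2 fold change 0.74, SE 0.05; edgeR, BH-adjusted p = 1.17e-17) and by 1.28-fold in IFNγ + LPS (log2 fold change 0.35, SE 0.05; edgeR, BH-adjusted p = 8.61e-08), responses that differed by -0.39 (edgeR, BH-adjusted p = 3.48e-05). The 9 pseudogene copies of Esd took between 0 and 6 reads each in all libraries, beside 58717 of Esd.

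**Figure D2:**
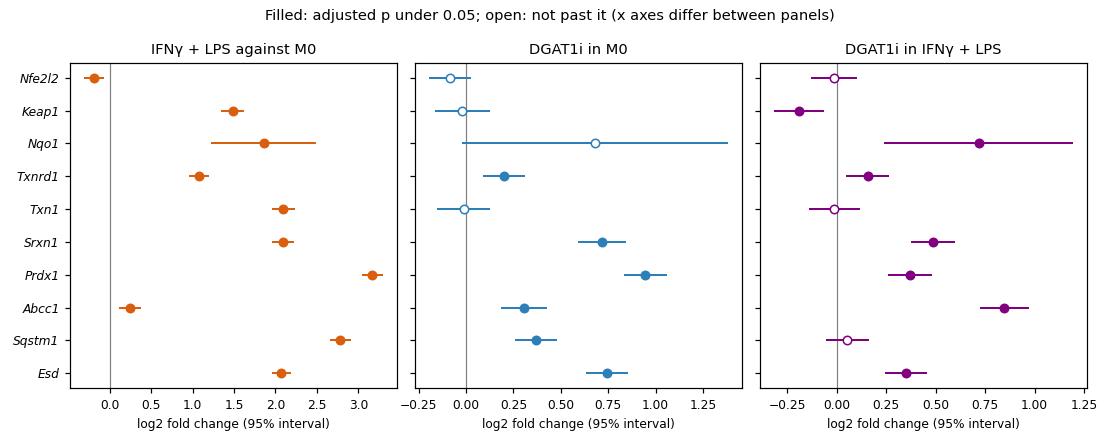
Log2 fold changes of the 10 members with 95% intervals for IFNγ + LPS against M0 (left), DGAT1i in M0 (middle) and DGAT1i in IFNγ + LPS (right), on x axes that differ between panels. Filled points passed an adjusted p under 0.05 in edgeR's test; Prdx1 lies furthest right in the left and middle panels (3.17 and 0.94) and Abcc1 in the right panel (0.85), while Keap1 is the filled point below 0 in the right panel (-0.19).

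A test of whether DGAT1i acted differently in IFNγ + LPS than in M0 called 5 of the 10 members, beside 18.5% of all genes tested. For Abcc1 the difference was higher in IFNγ + LPS, as for 8.66% of all genes, and for Prdx1, Srxn1, Sqstm1 and Esd it was lower, as for 9.80%. For Nfe2l2, Keap1, Nqo1, Txnrd1 and Txn1 it did not pass the test, and for Nqo1 its 95% interval, -0.99 to 1.06, leaves a wide range of sizes. These are differences of log ratios, and the amounts gained read otherwise on the linear scale. DGAT1i added 1165 CPM of Prdx1 in M0 (SE 80.4) and 3334 CPM in IFNγ + LPS (SE 529). It added 71.7 CPM of Srxn1 (SE 6.16) in M0 and 191 CPM (SE 22.0) in IFNγ + LPS, and 199.0 CPM of Esd (SE 3.57) and 341 CPM (SE 52.0). For these 3 genes the ratio to the untreated state was smaller and the number of added CPM larger in the stimulated cells, and the linear differences carry no test. Sqstm1 gained 107 CPM in M0 (SE 10.7) and 96.6 CPM in IFNγ + LPS (SE 78.6).

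Levels of different genes were compared as reads per kilobase of merged exon, on the CPM scale (RPKM). Merged exons pool all annotated transcripts of a gene, from 1051 bases for Txn1 to 15092 for Abcc1. They can be longer than the transcript expressed, so the order depends on the annotation. In M0 the order of the means was Prdx1 (414 RPKM), Txn1 (178), Sqstm1 (109), Esd (87.7), Nfe2l2 (52.7), Srxn1 (39.6), Txnrd1 (30.5), Abcc1 (13.0), Keap1 (12.1) and Nqo1 (0.868), and only the libraries of Abcc1 and Keap1, as neighbours in that order, overlapped. IFNγ + LPS placed Prdx1 at 3724 RPKM, Txn1 at 759.96 and Sqstm1 at 749, the last pair overlapping, and moved Srxn1 (169) and Txnrd1 (64.5) above Nfe2l2 (46.2). Keap1, at 33.7 RPKM, then stood above Abcc1, at 15.4. With DGAT1i in IFNγ + LPS, Prdx1 reached 4819.7 RPKM, and Abcc1 (27.7) and Keap1 (29.6) overlapped again. In M0 + DGAT1i the order was that of M0 except that Esd (147) and Sqstm1 (141), which overlapped, and Srxn1 (65.0) and Nfe2l2 (49.7) changed places. Among all genes tested Prdx1 was at the 99.5 to 99.9 percentile of RPKM in the 4 groups, and Nqo1 at the 11.6 percentile in M0, the 17.9 in M0 + DGAT1i, the 36.3 in IFNγ + LPS and the 48.6 in IFNγ + LPS + DGAT1i.

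Over the 12 libraries Pearson's r of log2 CPM was 0.88 to 0.998 between any pair of the members other than Nfe2l2 and Abcc1. Abcc1 stood apart, with r from 0.54 (Keap1) to 0.827 (Nqo1) among these 8, and Nfe2l2 was negative with all. Over all pairs r ranged from -0.937 between Nfe2l2 and Nqo1 to 0.998 for Prdx1 with Esd and for Srxn1 with Esd, over libraries that fall into 4 groups, so that the values describe group means more than separate libraries. The genes outside the 10 whose pattern was most like that of Srxn1 were Pgd (r = 0.999), an NADPH-making enzyme of the pentose phosphate pathway, Tcirg1 (0.997), Clec4n (0.996), Slc7a11 (0.996), the cystine transporter, and Alkbh5 (0.995). Those most like Nqo1 were Jund (0.986), Arih1 (0.984), Gm11613 (0.983), Utrn (0.982) and Dtd1 (0.981). Candidates were limited to genes whose mean log2 CPM was 2 or more, and the likeness is a description over 12 libraries.

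Of 14 other regulators of NRF2, 12 were tested. IFNγ + LPS changed 9 of the 12, beside 73.3% of all genes, and DGAT1i changed 4 in IFNγ + LPS and 4 in M0, beside 29.8% and 24.4%. With 12 genes these counts are near those shares, which also stand beside the counts of the other 4 lists. IFNγ + LPS raised 8 and lowered 1, Palb2, a BRCA2 partner that also binds KEAP1, and the small MAF partners of NRF2 were among those raised: Maff from 2.23 ± 0.125 to 16.1 ± 3.32 CPM (SD, n = 3), Mafk from 30.6 ± 3.06 to 118 ± 3.17 CPM and Mafg from 118 ± 7.00 to 206 ± 6.67 CPM. Bach1, the repressor that competes with NRF2 for the ARE, rose from 115 ± 3.74 to 270.2 ± 15.8 CPM with IFNγ + LPS and further to 316 ± 17.995 CPM with DGAT1i (log2 fold change 0.22; edgeR, BH-adjusted p = 0.00105), the one regulator that DGAT1i raised in IFNγ + LPS. DGAT1i lowered 3 in these cells, Pgam5, a mitochondrial phosphatase that binds KEAP1, by 0.35, Mafk by 0.21 and the related factor Nfe2l1 by 0.14 on the log2 scale. Calls on Mafk and Nfe2l1 were lost under 5 and 6 of 20 alternative settings, and of the 4 changed 2 were left without IFNγ + LPS replicate 2 or IFNγ + LPS + DGAT1i replicate 1. In DESeq2 fitted to only the libraries compared, Pgam5 was lost as well and 1 of the 4 was left, Bach1. In M0 it raised Mafg (0.34), Gsk3b (0.24), a kinase that marks NRF2 for turnover, and Nfe2l1 (0.19), the last a call that was lost without M0 replicate 1 and with library size only in place of TMM, and lowered Palb2 by 0.49. For Btrc and Dpp3, which take part in NRF2 turnover and in KEAP1 binding, the DGAT1i differences in IFNγ + LPS were -0.06 and 0.03, with adjusted p of 0.806 and 0.825 in edgeR's test. The median log2 fold change of the list with DGAT1i was -0.08 in IFNγ + LPS and 0.07 in M0.

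Of 20 other genes of the thioredoxin system, 19 were tested, and they moved both ways. DGAT1i raised 5 and lowered 3 in IFNγ + LPS and raised 4 and lowered 4 in M0, with medians of 0.02 and 0.01. The 5 raised in IFNγ + LPS were 3 without IFNγ + LPS replicate 2, without IFNγ + LPS + DGAT1i replicate 1 or with no filter on low counts, and the 4 raised in M0 were 2 without M0 replicate 2 or 3, with library size only or in DESeq2 fitted to only the libraries compared. Txnip, the protein that binds and inhibits thioredoxin, was at 296 ± 16.8 CPM in IFNγ + LPS and 459 ± 2.86 CPM with DGAT1i (log2 fold change 0.63; edgeR, BH-adjusted p = 1.86e-14), and at 385 ± 20.7 and 387 ± 2.61 CPM in M0. Nxn, nucleoredoxin, went from 5.90 ± 1.59 to 15.1 ± 1.28 CPM in IFNγ + LPS (log2 fold change 1.34; edgeR, BH-adjusted p = 2.31e-07). The mitochondrial pair Txn2 and Txnrd2 fell with DGAT1i in IFNγ + LPS, by 0.36 and 0.67 on the log2 scale, to 51.0 ± 7.23 and 7.66 ± 0.671 CPM. The peroxiredoxin Prdx5 rose more than Prdx1 with IFNγ + LPS, from 102 ± 6.27 to 1112 ± 72.7 CPM (log2 fold change 3.45), and was at 1033 ± 106 CPM with DGAT1i as well, a difference of -0.11 that did not pass the test. Prdx6, at 122 ± 7.03 CPM in IFNγ + LPS, rose by 0.24 with DGAT1i, a call that was lost without IFNγ + LPS replicate 2, and Sesn2 and Txndc17 were at 0.02 and -0.03, with adjusted p of 0.936 and 0.728 in edgeR's test. Txnl1 (0.23) and the methionine sulfoxide reductase Msrb1 (0.17) also rose and Msra fell by 0.50, calls that were lost under 3, 7 and 6 of 20 alternatives. In M0 the genes raised were Txnrd3 (0.72), Prdx6 (0.31), Prdx5 and Msrb1 (0.25 each), and those lowered were Msrb2, Sesn1, Prdx4 and Msra, by 0.79, 0.57, 0.48 and 0.43. Of the calls in M0, those on Msrb1, Prdx5 and Txnrd3 were lost under 6, 4 and 1 of 20 alternatives. IFNγ + LPS raised 9 of the 19 and lowered 7.

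Of 28 other detoxification genes, 25 were tested. IFNγ + LPS lowered 14 and raised 9, with a median of -0.45, whereas DGAT1i in IFNγ + LPS raised 12 and lowered none, with a median of 0.38 beside -0.01 over all genes. Under 3 of 20 alternatives 1 gene was lowered there, Akr1b3. In M0 DGAT1i raised 8 and lowered 4, with a median of 0.06, and raised 5 with library size only. Ptgr1, prostaglandin reductase 1, rose from 59.2 ± 3.26 to 151 ± 15.1 CPM with DGAT1i in IFNγ + LPS (log2 fold change 1.35; edgeR, BH-adjusted p = 6.82e-21), and was at 39.5 ± 1.08 and 41.3 ± 4.90 CPM in M0. Mgst1, a microsomal glutathione transferase, rose with DGAT1i in both states, from 108 ± 4.40 to 224 ± 15.8 CPM in IFNγ + LPS and from 44.6 ± 5.99 to 85.6 ± 2.05 CPM in M0. The aldo-keto reductases Akr1b8 and Akr1a1 rose by 1.32 and 0.23 on the log2 scale in IFNγ + LPS, and the carbonyl reductase Cbr3 by 0.87, a call that was lost without IFNγ + LPS + DGAT1i replicate 2. Ephx1, microsomal epoxide hydrolase, moved in opposite directions, from 26.4 ± 1.76 down to 18.8 ± 0.929 CPM with DGAT1i in M0 and from 3.94 ± 0.491 up to 8.58 ± 0.757 CPM in IFNγ + LPS, and the others lowered in M0 were Abcg2, Nqo2 and Akr1b3, the last a call that was lost without M0 + DGAT1i replicate 1. Aldh3a2 and Adh5, the latter acting just before Esd in the disposal of formaldehyde, were at -0.02 and 0.00 with DGAT1i in IFNγ + LPS, with adjusted p of 0.902 and 0.984 in edgeR's test.

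Among 16 further NRF2 targets in the glutathione, NADPH and heme pathways, all tested, DGAT1i raised 11 in M0 and lowered none, with a median of 0.54, and raised 11 and lowered 1 in IFNγ + LPS, with a median of 0.48. Hmox1, heme oxygenase 1, was at 414 ± 28.6 CPM in M0, 1047 ± 50.6 CPM in M0 + DGAT1i, 3466 ± 236 CPM in IFNγ + LPS and 10933 ± 262 CPM in IFNγ + LPS + DGAT1i. Its rises with DGAT1i were 1.34 in M0 and 1.66 in IFNγ + LPS on the log2 scale (edgeR, BH-adjusted p = 8.75e-26 and 4.46e-31). Gclm, the modifier subunit of glutamate-cysteine ligase, rose from 46.6 ± 1.87 to 131 ± 2.66 CPM in M0 and from 269 ± 10.6 to 512 ± 30.2 CPM in IFNγ + LPS. Slc7a11 rose from 2.61 ± 0.651 to 9.12 ± 0.773 CPM and from 130.5 ± 23.5 to 194 ± 27.3 CPM, the latter a call that was lost in edgeR fitted to only the libraries compared. Pgd rose by 0.51 in M0 and 0.35 in IFNγ + LPS. G6pdx, the first enzyme of the pentose phosphate pathway, was the gene that fell with DGAT1i in IFNγ + LPS, by 0.25 on the log2 scale, having risen by 0.19 in M0. Tkt and Blvra were at 0.06 and -0.06 in IFNγ + LPS, with adjusted p of 0.417 and 0.707 in edgeR's test. IFNγ + LPS raised 11 of the 16 and lowered Idh1, Blvra and Tkt, and Idh1, the cytosolic source of NADPH from isocitrate, went from 39.9 ± 4.71 to 65.7 ± 3.41 CPM with DGAT1i in IFNγ + LPS.

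**Figure D3:**
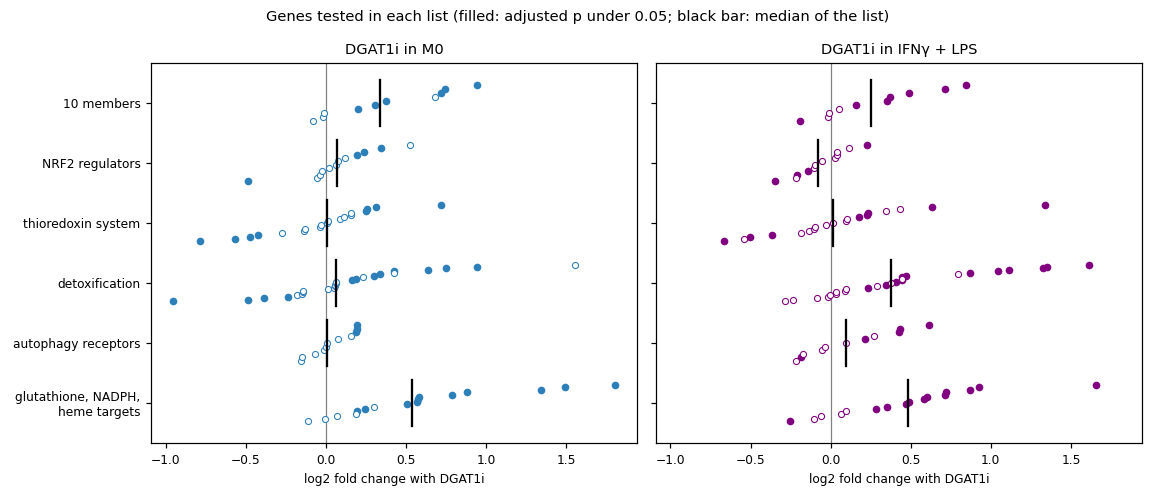
Log2 fold changes with DGAT1i in M0 (left) and in IFNγ + LPS (right) for the 10 members and the tested genes of the 5 other lists, 1 point per gene. Filled points passed an adjusted p under 0.05 in edgeR's test and black bars are medians, which lie at 0.54 and 0.48 for the glutathione, NADPH and heme targets and at 0.06 and 0.38 for the detoxification genes.

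Of 11 other autophagy receptors and their partners, all tested, DGAT1i raised 4 and lowered 1 in IFNγ + LPS and raised 3 in M0 (Tollip, Tax1bp1 and Gabarap), with medians of 0.09 and 0.01. The count in M0 was 1 without M0 replicate 2, where Tax1bp1 and Gabarap were lost, and none of the 3 calls held with library size only. In IFNγ + LPS the 5 changed were 3 without IFNγ + LPS replicate 1 or 2 and 2 in DESeq2 on all 12 libraries, where Gabarapl1 was the one gene raised of the 4. Gabarapl1 rose from 73.5 ± 6.58 to 112 ± 8.42 CPM with DGAT1i in IFNγ + LPS (log2 fold change 0.61; edgeR, BH-adjusted p = 9.04e-09). Tax1bp1, a ubiquitin-binding receptor like p62, rose with IFNγ + LPS from 176 ± 7.64 to 627 ± 31.3 CPM and fell with DGAT1i in these cells by 0.18 on the log2 scale, to 552 ± 12.9 CPM (edgeR, BH-adjusted p = 0.00406). Calcoco1, Map1lc3a and Map1lc3b also rose there, by 0.43, 0.43 and 0.21, calls that were lost under 6, 5 and 5 of 20 alternatives. Nbr1 and Gabarap were at -0.05 and -0.03 there, with adjusted p of 0.562 and 0.694 in edgeR's test. The median log2 fold change of these 11 genes with IFNγ + LPS was 0.07, with 5 raised (Tax1bp1, Optn, Gabarap, Map1lc3a and Nbr1) and 4 lowered (Wdfy3, Calcoco1, Gabarapl2 and Gabarapl1), beside 2.78 for Sqstm1. The call on Gabarapl1 was lost without IFNγ + LPS replicate 2 and that on Gabarapl2 without IFNγ + LPS replicate 1. With library size only in place of TMM, 3 were raised and 7 lowered, and Nbr1 stood at -0.24 and Map1lc3a at -0.0053.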

How the data were processed

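Macrophage RNA sequencing libraries were placed in 4 groups of 3 by the deposited labels. The authors deposited raw read counts per gene, without normalization, for 47937 Ensembl identifiers, of which 25746 had 0 reads in all 12 libraries. The submitters' processing notes name GRCm38 and DESeq2, whereas aligner, counter, strand setting and annotation release are not given in the sources used. The study's methods name the TruSeq stranded mRNA kit, the labels a NEBNext low input kit. Identifiers were matched to GENCODE M21 without their version (47224 matched, 713 without a symbol), which also gave positions (GRCm38) and merged exon lengths.

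Counts were filtered with filterByExpr (11760 genes kept), scaled by TMM and fitted with edgeR 4.0.16 in R 4.3.3 (glmQLFit, robust), with 1 mean per group over all 12 libraries. Contrasts were tested with edgeR's quasi-likelihood test, adjusted by Benjamini-Hochberg over all genes tested, and an adjusted p under 0.05 was taken as changed. Library totals were 4996014 to 6621671 reads (median 6099313.5), and the common biological coefficient of variation was 0.0507. Replicates of a group correlated with r of 0.988 to 0.992. The variance between them was 1.9 to 3.96 times that of counting noise, as a mean over genes (chi-square per gene). Percentiles rank a gene among all genes tested.

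The members and the gene lists were chosen with earlier results of these data known. From each list the 2 genes with the smallest and the 2 with the largest p for DGAT1i in IFNγ + LPS were named. Maff, Mafg, Mafk, Nfe2l1, Txn2, Txnrd2, Prdx5, Prdx6, Akr1b8, Cbr3, Akr1a1, G6pdx, Slc7a11 and Pgd, and list genes that spell out a count of 5 or fewer, were added after their values were seen. Alternatives were other scalings (RLE, library size only), other filters (none beyond 1 read, a mean CPM of at least 1), DESeq2 1.42.0, fits of only the libraries compared, a block for the replicate number, and leaving out single libraries. Pseudogene copies were those with 95% identity to 20% or more of a member's longest transcript (BLAST 2.17.0). Python 3.11.15 with matplotlib 3.10.9 drew the figures. Lipid, metabolite, cytokine and flow cytometry data were not used here.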

Additional observations from a re-analysis of the deposited data

Results flagged for a closer look

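The DGAT1i response differed between IFNγ + LPS and M0, by edgeR's test of the difference itself with Benjamini-Hochberg adjustment over all genes tested, for 5 members. The differences on the log2 scale, IFNγ + LPS minus M0, were -0.57 for Prdx1, -0.39 for Esd, -0.32 for Sqstm1, -0.23 for Srxn1 and 0.54 for Abcc1.

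The same test passed for 20 genes of the lists that are named with values. Higher in IFNγ + LPS were the responses of Abcg2 by 1.75, Ephx1 by 1.60, Nxn by 1.37, Ptgr1 by 1.29, Sesn1 by 1.00, Gabarapl1 by 0.68, Idh1 by 0.65, Txnip by 0.63, Akr1b8 by 0.57, Nqo2 by 0.48, Map1lc3b by 0.37 and Hmox1 by 0.32. Lower were those of Gclm (-0.56), G6pdx (-0.45), Tax1bp1 (-0.37), Prdx5 (-0.36), Nfe2l1 (-0.34), Txn2 (-0.33), Mafg (-0.30) and Gabarap (-0.22). Calls on Srxn1, Gabarap and Txn2 were lost in 10, 11 and 10 of 18 alternative settings, that on Nqo2 in 3 and that on Abcg2 in 2, without IFNγ + LPS replicate 2 or IFNγ + LPS + DGAT1i replicate 3. In all genes tested 18.5% passed, and the summed neutrophil and dendritic cell markers given in the report also moved with DGAT1i in IFNγ + LPS; their part in these differences was not tested.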

How the results depend on the processing

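Of 980 values of the members under the alternatives, 953 kept their direction and their side of the threshold, 20 lost and 6 gained a call, and 1 reversed: Abcc1 with IFNγ + LPS, at -0.22 with library size only. The same scaling gave values below 0 in that comparison for Pgam5 (-0.082), Nbr1 (-0.24), Txn2 (-0.35), Gsk3b (-0.34), Map1lc3a (-0.0053), Map1lc3b (-0.40), Tollip (-0.44), Btrc (-0.20) and Txnrd3 (-0.17), which were above 0 with TMM, the last pair without a call under either. It moved the median of all genes to -0.46 (IFNγ + LPS against M0) and -0.43 (both with DGAT1i), and the share of higher calls from 50.6% to 25.0%, from 50.0% to 25.5%, from 45.2% to 29.7% for DGAT1i in M0 and from 46.9% to 58.2% for the difference between the DGAT1i responses. The number of members changed stayed at 10 for IFNγ + LPS and ran from 6 to 7 for DGAT1i in M0, 9 to 10 for IFNγ + LPS with DGAT1i in both and 4 to 5 for the difference. For DGAT1i in IFNγ + LPS it ran from 4 to 7 over the left-out libraries, 4 being without IFNγ + LPS replicate 2, and was 5 in DESeq2 fitted to only the libraries compared, where 2143 genes of all were called beside 3508. The cause was not tested. Over the alternatives the regulators raised by IFNγ + LPS numbered 5 to 10 and the thioredoxin genes 6 to 9. Of the 10 members Nqo1 had the fewest reads, 6 to 49 per library, which limits its precision.

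Whether replicate numbers pair the libraries was not settled. Same-numbered libraries of different groups correlated weakly, with r between -0.02 and 0.07 in their deviations from the group means. Yet 9 of 12 libraries correlated best with one of their own number. With the replicate number as a block, 10, 7, 6, 9 and 5 members changed in the 5 comparisons, as without it. The block called 8635, 3568, 2959, 8310 and 2268 genes in all, beside 8615, 3508, 2869, 8303 and 2171 without it.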
